A study of Homo sapiens with 6 samples.

Results

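The transcripts followed here encode 10 proteins of autophagy: the cargo receptors SQSTM1 and NBR1, the ATG8-family proteins MAP1LC3B and GABARAPL1, the lipid-binding protein WIPI1, the kinase ULK1, the conjugation proteins ATG5 and ATG12, the lipid kinase partner BECN1, and the transcription factor TFEB. They were chosen by name, with earlier results of these data known. Each was found as a single row among the 33900 genes of the table, so 10 of 10 were present. All 10 had a mean FPKM of at least 0.5 and entered the test of 14178 genes. FPKM divides fragment counts by transcript length in kilobases and by library size. LX-2 is an established human cell line of hepatic stellate origin, with a wild-type genotype, and was grown in DMEM with fetal bovine serum in all samples. In 3 samples the cells received recombinant human Sema3C (rhSema3C) at 300 ng/ml for 48 h, and in the 3 control samples they received PBS for the same time. The labels call the 3 samples of each group biological replicates, and they all come from this single cell line.

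Autophagy encloses parts of the cytoplasm in a double membrane and delivers them to lysosomes. The ULK1 kinase complex starts the process, the lipid kinase complex that contains BECN1 marks the membrane with PI3P, and WIPI proteins bind this lipid. The ATG12-ATG5 conjugate then attaches ATG8-family proteins to the membrane, where they hold cargo receptors such as SQSTM1 and NBR1, which bind ubiquitin and are degraded together with their cargo. TFEB switches on lysosomal and autophagy genes when it enters the nucleus. Autophagy is known to supply activated stellate cells with fatty acids from lipid droplets. Transcript levels measure neither the flow of cargo through the pathway nor the location of TFEB.

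The promoters of WIPI1 and SQSTM1 are printed because WIPI1 had the largest rise of the 10 and SQSTM1, the most abundant of them, fell. The fall of SQSTM1 was close to that of TFEB, at -0.42 and -0.39 on the log2 scale. Each window holds 250 bases before a RefSeq start site and 50 after it, on GRCh38.p14, written 5′ to 3′ on the strand of the gene. For SQSTM1, which has 3 such windows, the window nearest the start of its principal GENCODE transcript is given. The WIPI1 window is chr17:68457447-68457746 on the minus strand and the SQSTM1 window is chr5:179820655-179820954 on the plus strand. Capitals mark GC boxes (GGGCGG on either strand) and CCAAT boxes (CCAAT on either strand).
WIPI1: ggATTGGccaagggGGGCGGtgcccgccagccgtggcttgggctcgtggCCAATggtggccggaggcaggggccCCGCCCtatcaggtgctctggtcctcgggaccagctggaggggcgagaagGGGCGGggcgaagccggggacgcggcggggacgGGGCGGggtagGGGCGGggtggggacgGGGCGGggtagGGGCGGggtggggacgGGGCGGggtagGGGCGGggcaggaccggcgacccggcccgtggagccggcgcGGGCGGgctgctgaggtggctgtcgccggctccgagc
SQSTM1: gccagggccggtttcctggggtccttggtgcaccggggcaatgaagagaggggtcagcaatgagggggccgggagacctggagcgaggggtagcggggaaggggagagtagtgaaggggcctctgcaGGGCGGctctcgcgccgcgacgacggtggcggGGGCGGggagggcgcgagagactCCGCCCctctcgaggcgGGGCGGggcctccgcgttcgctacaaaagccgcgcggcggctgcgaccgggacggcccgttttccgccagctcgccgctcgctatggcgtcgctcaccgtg
The WIPI1 window held 10 GC boxes and 2 CCAAT boxes, and the SQSTM1 window held 4 GC boxes and no CCAAT box. All 10 genes matched the promoter table by symbol, with 16 windows in all. A GC box was found in at least 1 window of 8 genes and in 13 of the 16 windows, where 45% of all 35116 windows held it. SQSTM1 and TFEB each gave 3 of the 16 windows, so the windows are not independent. In the window nearest each principal start, GC content ran from 51.7% (GABARAPL1) to 79.7% (WIPI1), with SQSTM1 at 73%. The median of all windows was 58.7%, and the part of GC content in these counts was not tested. CCAAT was found in windows of ATG5, BECN1, NBR1 and WIPI1, in 4 of the 16, where 34.6% of all windows held it. The E-box CACGTG, the core of the element that TFEB binds, was found in none of the 16 windows, against 7.26% of all windows. The letters TGATGCAA, a composite element bound by ATF4, and GTAAACA, bound by forkhead factors, were also found in none, against 0.866% and 3.42% of all windows. The antioxidant response core TGACNNNGC occurred only in the MAP1LC3B window, against 13.3% of all windows. Both strands were searched, matches could overlap, and the windows cover only the bases next to each start site.

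The 6 samples had between 68267808 and 89245585 counts on genes, and mitochondrial genes took between 3.73% and 5.42% of them, with the 3 lower shares in the rhSema3C samples. Of 12 stellate cell markers, 10 had an FPKM of at least 1 in every sample, with VIM between 814 and 1074, while COL1A2 stayed at or below 0.144 and DES at or below 0.0557. The summed FPKM of the stellate markers, carried mainly by VIM, was 1634 to 1675 with PBS and 1326 to 1403 with rhSema3C. LOX was at 7.61 to 8.53 with PBS and 17.3 to 18.1 with rhSema3C. COL1A1 was lower with rhSema3C (89.1 to 103 and 58.1 to 62.3), as was ACTA2 (13.45 to 14.95 and 9.84 to 10.97). THY1 (22.9 to 25.2 and 12.6 to 14.1) and TIMP1 (222 to 234 and 180 to 186) were also lower. PDGFRB and COL6A1 overlapped between the groups. By qRT-PCR the study reports higher ACTA2 and COL1A1 mRNA in LX-2 cells with rhSema3C. It also reports more α-SMA, the protein of ACTA2, by western blot and immunofluorescence, and more collagen I by immunofluorescence. ALB, EPCAM, CDH5 and PTPRC, which mark hepatocytes, epithelial cells, endothelial cells and leukocytes, did not exceed 0.0469 in any sample. Other markers of these cell types, namely SERPINA1, SOX9, KRT7 and CD14, were above an FPKM of 1 in every sample. SERPINA1 was at 2.58 to 3.04 with PBS and 3.52 to 4.14 with rhSema3C. SOX9 was at 9.01 to 10.8 and 5.22 to 5.64, and CD14 at 4.16 to 5.18 and 2.67 to 3.23. KRT7 overlapped between the groups (2.26 to 3.34). The 5 endothelial markers summed to 0.803 to 1.06 with PBS and 1.27 to 1.70 with rhSema3C, with VWF at 0.0902 to 0.120 and 0.542 to 0.760. CD68, a lysosomal membrane protein used as a macrophage marker, was at 90.3 to 98.0 with PBS and 63.6 to 69.8 with rhSema3C. The part of these differences in the results was not tested, and in such bulk samples fewer cells of a kind and less RNA per cell cannot be told apart.

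The study compared rhSema3C with PBS to see how Sema3C acts on stellate cells. At an adjusted p below 0.05 in edgeR's quasi-likelihood test, 6 of the 10 genes rose (WIPI1, ATG5, ULK1, ATG12, NBR1 and GABARAPL1) and 3 fell (SQSTM1, TFEB and MAP1LC3B). Only BECN1 did not pass. Among all genes tested 31.7% rose and 30.6% fell by the same rule, so a call in either direction was common, at 62.3%. The 10 genes had a median log2 fold change of 0.37, with a range from -0.42 to 0.76, and that of all genes tested was 0.02. With library size alone or with TPM as the scaling, 7 of the 10 rose and 1 fell. Among all 14178 genes tested, 5654 rose and 3415 fell with library size alone, and 6934 rose and 2428 fell with TPM. The study itself asked for a fold change over 2 with p below 0.05. By this rule edgeR called 0 of the 10, against 5.54% of all genes (3.42% up and 2.12% down), and DESeq2 and limma also called 0, although 9 of the 10 had an unadjusted p below 0.05. Counts scaled to the normalised library size (CPM, with TMM factors) did not overlap between the groups for any of the 10 genes, 7 higher and 3 lower, where 67.8% of all genes tested did not overlap (34.6% higher and 33.3% lower). With 3 samples a group, 0.1 is the smallest two-sided p that an exact permutation test on 1 gene can reach, and every one of the 10 reached this value.

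**Figure D1:**
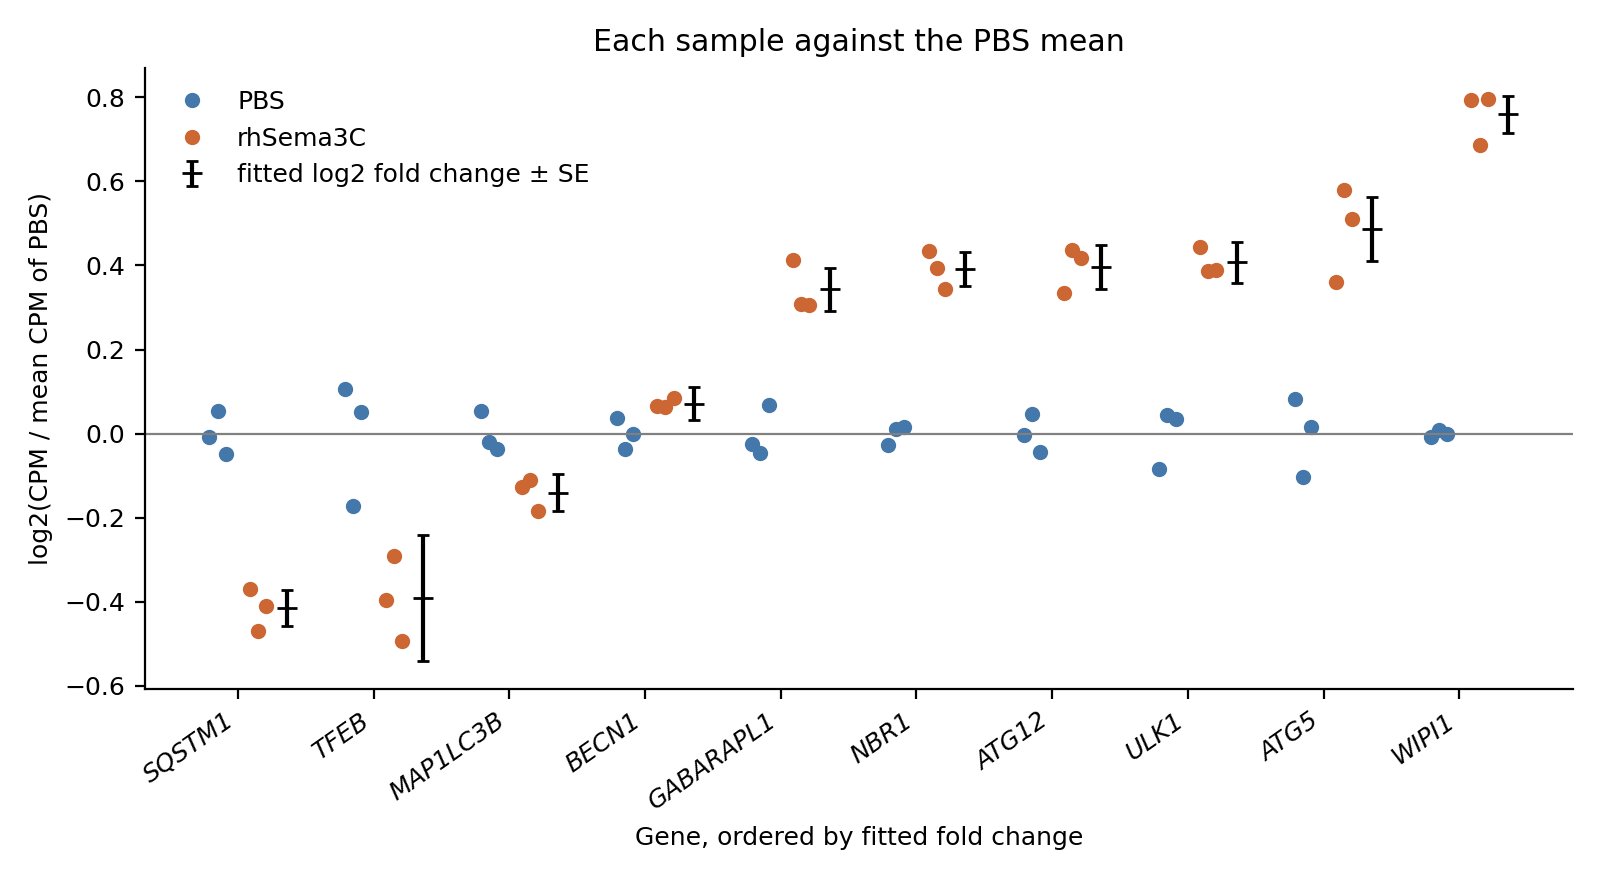
The vertical axis gives log2 of each sample's CPM over the PBS mean for the 10 genes, ordered by fitted fold change, with 3 PBS samples in blue and 3 rhSema3C samples in orange. Black bars give the fitted log2 fold change with its standard error, which runs from -0.42 for SQSTM1 to 0.76 for WIPI1.

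SQSTM1, also called p62, links ubiquitin-tagged cargo to ATG8-family proteins. Its expression was 1711, 1787 and 1662 CPM in PBS replicates 1, 2 and 3, and 1332, 1242 and 1296 CPM in rhSema3C replicates 1, 2 and 3. All rhSema3C samples were below all PBS samples. The means were 1720.2 ± 62.7 and 1290.1 ± 45.3 CPM (SD, n = 3 per group), and the rhSema3C level was 0.750 of the PBS level. On the log2 scale the fitted difference was -0.42 (standard error, SE, 0.043, edgeR adjusted p = 7.7e-06). Fits without 1 sample gave values from -0.44 to -0.39. The fall was smaller with other scalings, at -0.31 with library size alone and -0.19 with TPM. SQSTM1 (ENSG00000161011) lies on chromosome 5 from 179806398 to 179838078 on GRCh38. Exons of MRNIP and MGAT4B on the other strand cover 22.0% of its annotated exon bases. The assigned counts were 2792 to 4697 per sample for MRNIP and 20223 to 24182 for MGAT4B, against 107911 to 146446 for SQSTM1. The FPKM of MGAT4B was 48.3 to 52.9 with PBS and 43.4 to 44.7 with rhSema3C, and that of MRNIP overlapped between the groups. Of the 75-base words of the principal SQSTM1 transcript, 49.5% also occur in MRNIP transcripts on the other strand. Whether the counting used strand is not given in the sources used here, and the part of such neighbours in the counts was not tested.

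NBR1, the other receptor among the 10, resembles SQSTM1 in its domains and also binds ubiquitin. Its CPM was 121, 124 and 125 with PBS and 167, 162 and 156 with rhSema3C. The lowest rhSema3C value was above the highest PBS value, in the direction opposite to SQSTM1. The log2 fold change was 0.39 (SE 0.041, adjusted p = 8.8e-06), and it stayed between 0.37 and 0.41 with each sample left out. It was 0.50 with library size alone and 0.61 with TPM. NBR1 (ENSG00000188554) lies on chromosome 17 from 43170481 to 43211689. Because both genes were counted in the same libraries, their ratio does not depend on scaling between samples. The ratio of SQSTM1 to NBR1 FPKM was 15.8, 16 and 14.9 with PBS and 8.92, 8.56 and 9.24 with rhSema3C. The difference was -0.81 on the log2 scale, larger than the spread within groups (SD 0.057 and 0.056), and the groups did not overlap (two-sided exact permutation test, p = 0.1, adjusted p = 0.13 over the 4 ratios computed). The smallest p the design allows is 0.1.

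The 4 other ubiquitin-binding receptors placed the pair in context, and all 4 passed the test. CALCOCO2, which recognises damaged vacuoles and bacteria, had 91.6, 94.5 and 88.8 CPM with PBS and 173, 177 and 175 CPM with rhSema3C, a log2 fold change of 0.93 (SE 0.040). TAX1BP1 and OPTN, which also carry ubiquitin-tagged cargo, rose by 0.63 and 0.47 on the log2 scale. TOLLIP, an adaptor for aggregated proteins, fell from 100.1 ± 0.595 to 61.0 ± 2.53 CPM, a log2 fold change of -0.72. So 4 of the 6 receptors rose and 2 fell at an adjusted p below 0.05, where 31.7% of all genes rose and 30.6% fell. The same numbers of receptors were found with DESeq2 size factors, with library size alone and with TPM. Of all 14178 genes tested, 5654 rose and 3415 fell with library size alone, and 6934 rose and 2428 fell with TPM. SQSTM1 was the most abundant receptor per length in every sample. It made up 73.6% to 75.5% of the summed FPKM of the 6 receptors with PBS and 61.6% to 63.8% with rhSema3C. The share of CALCOCO2 was 3.57% to 3.62% with PBS and 7.50% to 7.94% with rhSema3C. The summed FPKM itself was 282 to 293 with PBS and 269 to 279 with rhSema3C.

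WIPI1 binds PI3P on the growing membrane and had the largest rise of the 10. PBS replicates 1, 2 and 3 were at 76.4, 77.2 and 76.8 CPM, and the rhSema3C replicates at 133, 124 and 133 CPM. The PBS values were within 1 CPM of each other, and all rhSema3C values were far above them. The means were 76.8 ± 0.427 and 130.0 ± 5.56 CPM (SD, n = 3 per group), and the fold change was 1.69 (log2 0.76, SE 0.044, adjusted p = 1.1e-07). Of all genes tested, 7.15% had a larger log2 fold change. With library size alone the log2 fold change of WIPI1 was 0.87, and with TPM it was 0.98. WIPI1 (ENSG00000070540) lies on chromosome 17 from 68420948 to 68457499, and exons on the other strand, mainly of ARSG, cover 28.1% of its exon bases. ARSG had 662 to 1186 assigned counts per sample, against 5053 to 11473 for WIPI1, and 26.5% of the 75-base words of the principal WIPI1 transcript also occur in ARSG transcripts. The FPKM of ARSG was 1.34 to 1.56 with PBS and 1.67 to 1.98 with rhSema3C. None of the other PI3P-binding genes rose with TMM scaling. WIPI2, which recruits the ATG8 conjugation machinery, fell by 0.28 on the log2 scale with TMM scaling (adjusted p = 0.00049), but not past the threshold with TPM (-0.06, adjusted p = 0.42). With edgeR 31.7% of all genes rose and 30.6% fell. Of the 4 other PI3P-binding genes, 0 rose and 2 fell with edgeR (WIPI2 and WDR45), and 2 were not called. Besides WIPI1, 1 gene of this list rose with library size alone and 2 rose with TPM. Of all 14178 genes tested, 5654 rose with library size alone and 6934 with TPM. Relative to the median of all genes, the median of the list with WIPI1 was -0.11 with TMM, -0.11 with library size alone and -0.09 with TPM.

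ULK1, the kinase at the start of the pathway, had 64.2, 70.2 and 69.8 CPM with PBS and 92.6, 89.1 and 89.1 CPM with rhSema3C. The log2 fold change was 0.41 (SE 0.049, adjusted p = 2.7e-05), and all rhSema3C samples were above all PBS samples. ULK1 (ENSG00000177169) lies on chromosome 12 from 131894622 to 131923150 and shares no exon bases with another annotated gene. Its partners in the kinase complex moved in different directions. RB1CC1, the scaffold also called FIP200, rose by 0.58 on the log2 scale (SE 0.109), whereas ATG101, which stabilises ATG13, fell by 0.51 (SE 0.041). ATG13 itself fell by 0.40, and ULK2 had a log2 fold change of 0.09 (adjusted p = 0.44). Thus 2 of the 5 complex genes rose and 2 fell, where 31.7% of all genes rose and 30.6% fell.

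BECN1, a subunit of the lipid kinase complex, had 138, 131 and 134 CPM with PBS and 140, 140 and 142 CPM with rhSema3C. The rhSema3C samples lay just above the highest PBS sample, with a log2 fold change of 0.07 (SE 0.039, adjusted p = 0.13). The call depended on the settings, since BECN1 passed with library size alone (0.18, adjusted p = 0.0019) and with TPM (0.30, adjusted p = 0.00026). It also passed in edgeR with TMM among genes at or above 5 FPKM on average (0.18, adjusted p = 0.0014). With limma on FPKM the adjusted p was 0.0050 and 0.0052 at pseudocounts of 1 and 0.1. BECN1 (ENSG00000126581) lies on chromosome 17 from 42810134 to 42833332. Exons of CNTD1 and PSME3 on the other strand cover 17.1% of its exon bases. CNTD1, whose transcripts hold 35.5% of the 75-base words of the principal BECN1 transcript, had 58 to 166 assigned counts per sample, but PSME3 had 17413 to 28923, more than the 8819 to 12828 of BECN1. The FPKM of PSME3 was 59.3 to 61.6 with PBS and 41.0 to 41.8 with rhSema3C. Of the 7 other subunits and regulators of this complex 5 rose and 1 fell, where 31.7% of all genes rose and 30.6% fell. NRBF2, which binds the ATG14-containing form of the complex, rose from 26.3 ± 1.89 to 39.2 ± 1.04 CPM. AMBRA1, a BECN1-binding regulator, had a log2 fold change of -0.31 (adjusted p = 0.0095) with TMM scaling. It did not pass with library size alone (adjusted p = 0.065) or with TPM (adjusted p = 0.45). The ratio of ULK1 to BECN1 FPKM was 0.393, 0.452 and 0.438 with PBS and 0.555, 0.535 and 0.527 with rhSema3C, a difference of 0.34 on the log2 scale with no overlap (two-sided exact permutation test, p = 0.1).

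ATG5 and ATG12 encode the partners of a single conjugate, and both rose. ATG5 had 33.1, 29.1 and 31.6 CPM with PBS and 40.1, 46.7 and 44.5 CPM with rhSema3C, a log2 fold change of 0.49 (SE 0.076, adjusted p = 0.00019). ATG12 had 49.7, 51.4 and 48.3 CPM with PBS and 62.8, 67.4 and 66.5 CPM with rhSema3C, a log2 fold change of 0.40 (SE 0.052, adjusted p = 5.0e-05). For both genes all rhSema3C samples were above all PBS samples. The ratio of ATG5 to ATG12 FPKM was 1.04, 0.887 and 1.03 with PBS and 1.00, 1.09 and 1.05 with rhSema3C. These values overlapped, and the difference of 0.09 on the log2 scale was within the spread of the PBS samples (SD 0.129, two-sided exact permutation test, p = 0.4). ATG5 (ENSG00000057663) lies on chromosome 6 from 106045423 to 106325791 and ATG12 (ENSG00000145782) on chromosome 5 from 115828200 to 115841565. AP3S1, on the other strand with 4114 to 8030 counts, overlaps 4.25% of the exon bases of ATG12, which had 3175 to 6162 counts. The FPKM of AP3S1 was 20.1 to 20.7 with PBS and 26.5 to 30.2 with rhSema3C. Of the 9 other conjugation genes 6 rose and 1 fell, where 31.7% of all genes rose and 30.6% fell. ATG16L2, a paralog of the ATG5 partner ATG16L1, rose most, from 28.9 ± 2.63 to 54.3 ± 1.08 CPM. ATG4D, a protease that trims ATG8 proteins, had a log2 fold change of -0.39 with TMM scaling (adjusted p = 0.0037) and of -0.16 with TPM (adjusted p = 0.12).

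**Figure D2:**
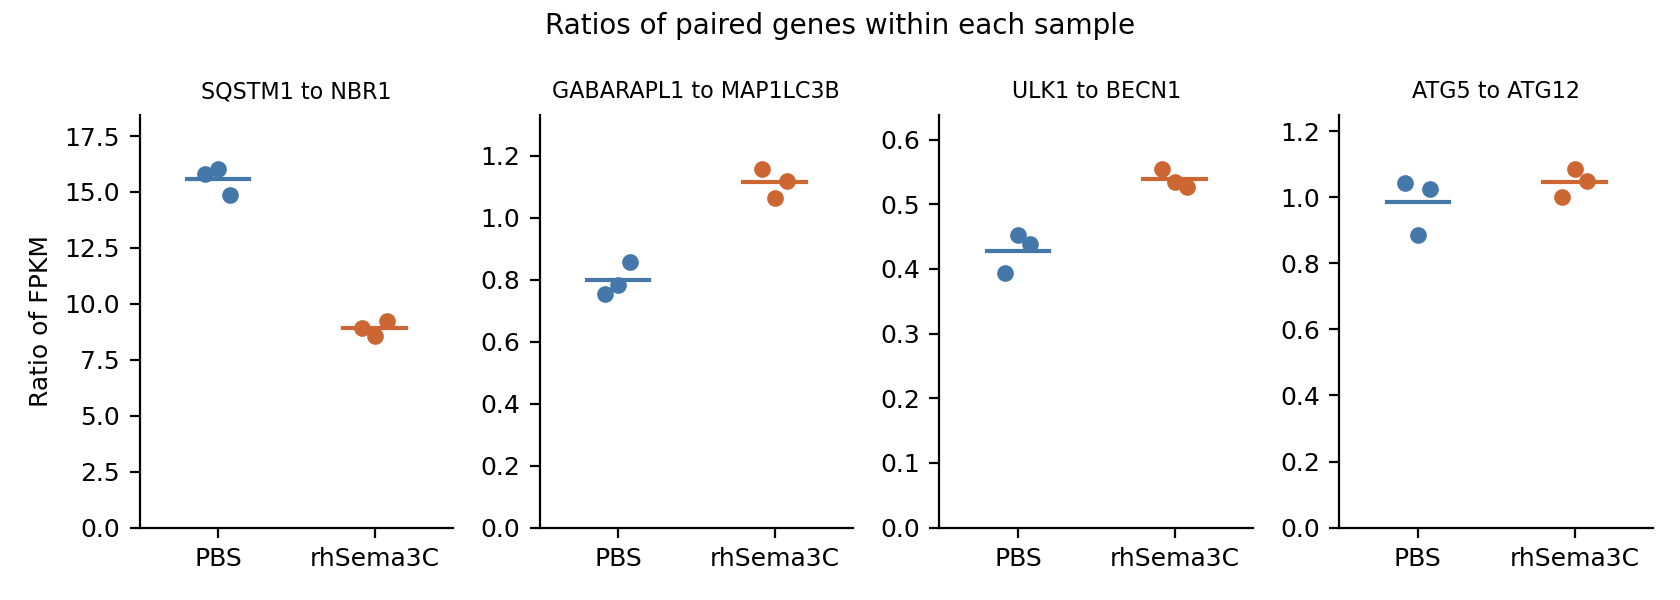
Each panel gives the ratio of FPKM of 2 genes within each of the 3 PBS samples (blue) and the 3 rhSema3C samples (orange), with a line at the group mean and an axis that starts at 0. The groups do not overlap for SQSTM1 to NBR1, GABARAPL1 to MAP1LC3B and ULK1 to BECN1, and they overlap for ATG5 to ATG12.

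The ATG8-family proteins are attached to the membrane and bind cargo receptors, and the 2 family members among the 10 genes differed in direction. GABARAPL1 had 65.1, 64.1 and 69.4 CPM with PBS and 88.2, 81.9 and 81.8 CPM with rhSema3C, a log2 fold change of 0.34 (SE 0.051, adjusted p = 0.00014). MAP1LC3B, which encodes the LC3B protein widely used to mark autophagosomes, had 107, 102 and 101 CPM with PBS and 94.5, 95.5 and 90.8 CPM with rhSema3C. Its log2 fold change was -0.14 (SE 0.044, adjusted p = 0.016). The fall of MAP1LC3B depended on the scaling and on single samples. The adjusted p was 0.54 with library size alone, 0.071 without PBS replicate 1 and 0.081 without rhSema3C replicate 3, and with TPM the log2 fold change was 0.09 (adjusted p = 0.087). On the FPKM scale its samples overlapped, at 20.0, 18.8 and 18.8 with PBS and 18.8, 19.1 and 18.2 with rhSema3C.

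The ratio of GABARAPL1 to MAP1LC3B FPKM was 0.754, 0.782 and 0.857 with PBS and 1.16, 1.06 and 1.12 with rhSema3C. GABARAPL1 was therefore below MAP1LC3B per length in every PBS sample and above it in every rhSema3C sample (difference 0.48 on the log2 scale, two-sided exact permutation test, p = 0.1). GABARAPL1 (ENSG00000139112) lies on chromosome 12 from 10212458 to 10223128, and MAP1LC3B (ENSG00000140941) on chromosome 16 from 87383953 to 87404779. MAP1LC3B shares 8.91% of the 75-base words of its principal transcript with MAP1LC3B2, which had 73 to 113 counts, so the split between these near copies is uncertain.

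The most abundant ATG8 gene was GABARAP, with 335.5, 325 and 320.4 CPM with PBS and 221, 230.3 and 228 CPM with rhSema3C, a log2 fold change of -0.53 (SE 0.040). Its share of the summed FPKM of the 7 ATG8 genes was 71.8% to 73.0% with PBS and 63.6% to 65.5% with rhSema3C. The share of GABARAPL1 was 6.80% to 7.48% with PBS and 11.2% to 12.2% with rhSema3C. GABARAPL2 had a log2 fold change of -0.21 (adjusted p = 0.0068) with TMM scaling, -0.10 with library size alone (adjusted p = 0.14) and 0.02 with TPM (adjusted p = 0.78). MAP1LC3A and MAP1LC3B2 were not called, at -0.02 and -0.12 on the log2 scale with TMM scaling and 0.20 and 0.08 with TPM. MAP1LC3C had a mean FPKM of 0.0059 and was not tested. Of the 6 ATG8 genes tested, 1 rose and 3 fell with TMM scaling, where 31.7% of all genes rose and 30.6% fell. With library size alone or with TPM 1 ATG8 gene rose and 1 fell. Of all 14178 genes tested, 5654 rose and 3415 fell with library size alone, and 6934 rose and 2428 fell with TPM.

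TFEB had the lowest level of the 10, with 451, 303 and 334 counts in the PBS replicates and 321, 366 and 290 counts in the rhSema3C replicates. As CPM these were 5.27, 4.35 and 5.08 with PBS and 3.72, 4.0 and 3.48 with rhSema3C, without overlap. The log2 fold change was -0.39 (SE 0.150, adjusted p = 0.040). The call was not stable. TFEB did not pass in 11 of 15 alternative settings, among them library size alone (adjusted p = 0.12), the fits without PBS replicate 1 (0.12), PBS replicate 3 (0.092), rhSema3C replicate 1 (0.082), rhSema3C replicate 2 (0.052) or rhSema3C replicate 3 (0.11). The sign was negative in all 15. TFEB (ENSG00000112561) lies on chromosome 6 from 41683978 to 41736259 and shares no exon bases with another annotated gene. Its relative TFE3, which acts on the same target genes, was far more abundant and fell from 239 ± 12 to 165 ± 4.07 CPM, a log2 fold change of -0.54 (SE 0.046). FOXO3, a forkhead factor that acts on autophagy genes, rose by 0.21 on the log2 scale (adjusted p = 0.0069), and MITF, FOXO1 and ZKSCAN3 were not called. TFEC, with a mean FPKM of 0.0536, was not tested.

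With TMM scaling 30.6% of all genes tested fell and 31.7% rose. Of 21 lysosomal genes that TFEB and its relatives are known to act on 16 fell and 2 rose with TMM scaling, with a median log2 fold change of -0.26. With library size alone 10 fell and 2 rose, and with TPM 5 fell and 4 rose, so the count depended on scaling. Among all 14178 genes, 3415 fell and 5654 rose with library size alone, and 2428 fell and 6934 rose with TPM. Relative to the median of all genes, the lysosomal median was -0.28 with TMM, -0.28 with library size alone and -0.26 with TPM. ATP6V0D1, a subunit of the lysosomal proton pump, fell most, from 237 ± 6.08 to 121 ± 7.33 CPM, and it fell in all 16 alternative settings. LAMP2, a lysosomal membrane protein needed for fusion with autophagosomes, rose by 0.38 on the log2 scale. Of 13 genes for fusion of autophagosomes with lysosomes 7 fell and 1 rose with TMM scaling, and 2 fell and 4 rose with TPM. Relative to the median of all genes, the median of this list was -0.26 with TMM and -0.23 with TPM. STX17, the syntaxin of the autophagosome, was the gene that rose with TMM scaling, from 18.6 ± 0.345 to 31.9 ± 1.10 CPM. VPS18, a subunit of the tethering complexes of the lysosome, fell by 0.68 on the log2 scale.

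Of 13 genes listed as organelle receptors, 8 rose and 3 fell with TMM scaling, where 31.7% of all genes rose and 30.6% fell. With DESeq2 size factors 6 of the 13 rose and 3 fell, where 4372 of all 14178 genes rose and 4450 fell. The list includes NCOA4, a receptor for ferritin rather than an organelle, which rose by 0.31 on the log2 scale with TMM. RETREG1, a receptor for the endoplasmic reticulum, rose most, from 11 ± 0.540 to 22.7 ± 1.06 CPM (log2 1.04, SE 0.086). It was the only gene of the role lists to pass the study's thresholds of fold change and p. FKBP8, a receptor on mitochondria, fell by 0.41. Of 5 tested genes for lipid supply to the membrane 3 rose and 1 fell. TMEM41B, a lipid scramblase, rose by 0.79, and ATG2A, a lipid transfer protein, had a log2 fold change of -0.40 with TMM scaling and of -0.17 with TPM (adjusted p = 0.062).

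**Figure D3:**
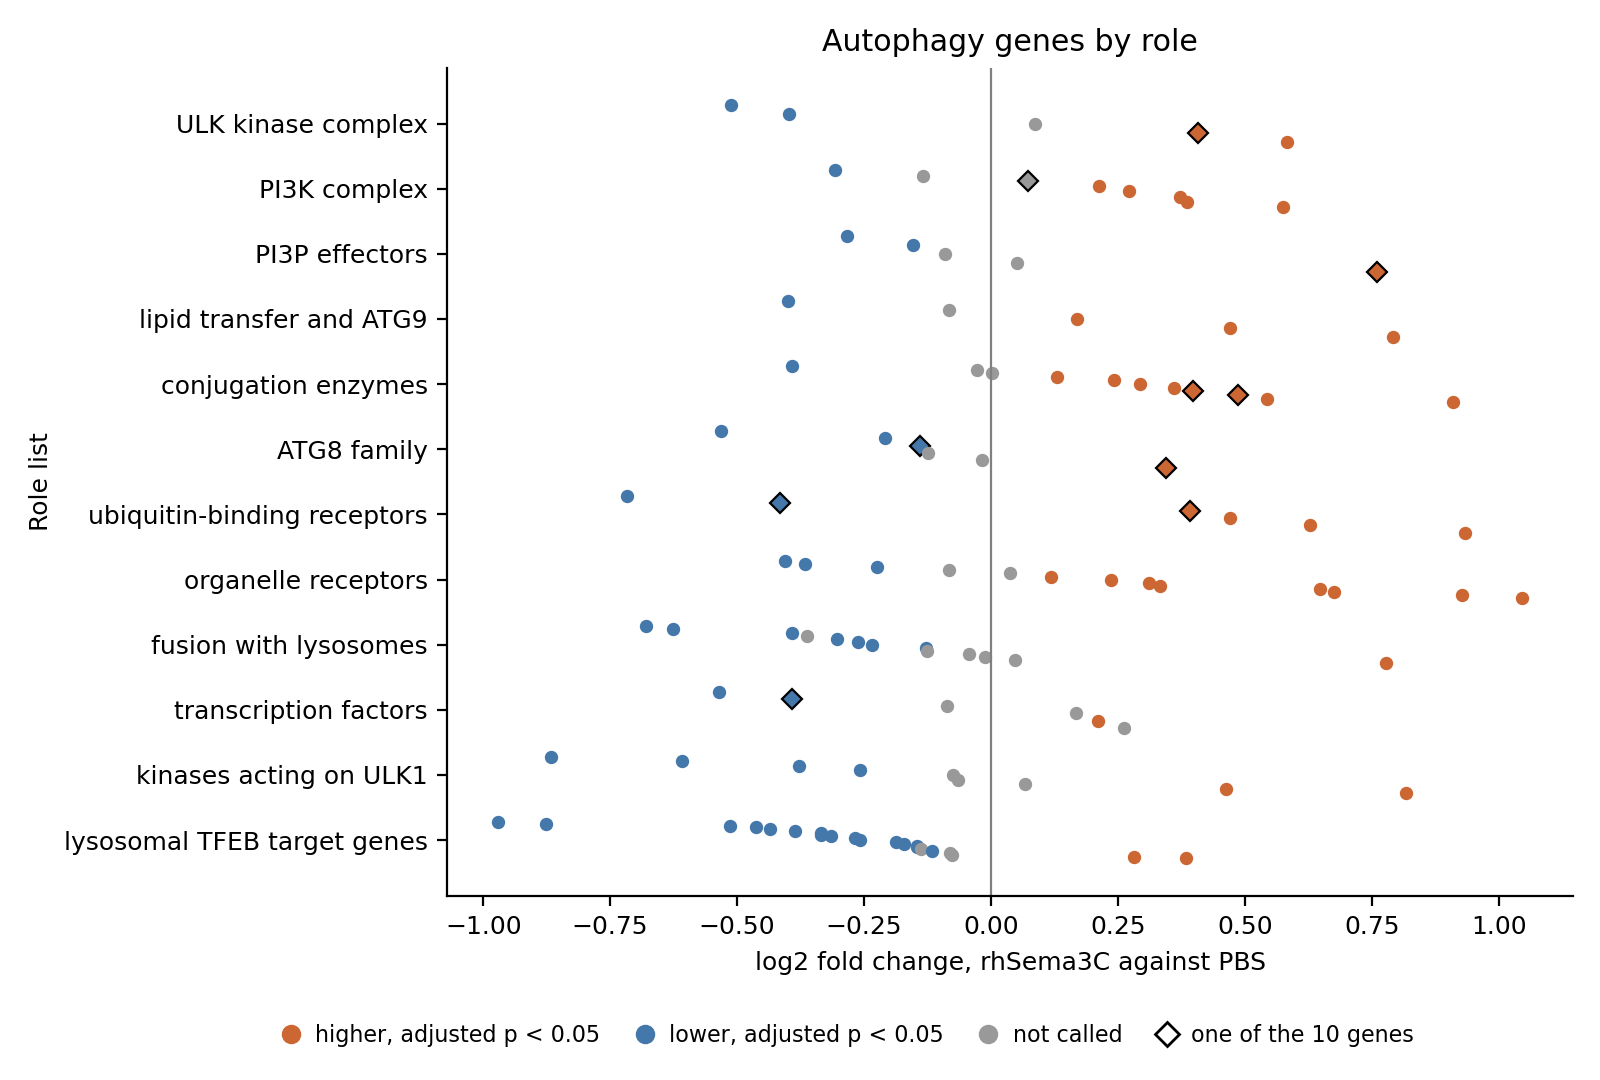
The horizontal axis gives the log2 fold change of rhSema3C against PBS for the 108 tested genes of 12 role lists on the vertical axis, coloured by the call at an adjusted p below 0.05 in edgeR, with the 10 genes as diamonds. With TMM scaling, 8 of 11 conjugation genes are marked higher and 16 of 21 lysosomal genes lower. Among all genes tested 31.7% rose and 30.6% fell.

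With TMM scaling 31.7% of all genes tested rose and 30.6% fell. Across all 113 genes of the role lists, 98 genes other than the 10 were tested, of which 32 rose and 41 fell. Their median log2 fold change was -0.08, against 0.37 for the 10 genes and 0.02 for all genes tested. Without the lysosomal genes and the kinases that act on ULK1, 68 genes were tested, of which 28 rose and 21 fell, with a median of 0.02. The 10 genes thus had a higher share of rises than the other autophagy genes listed, and this difference was not tested. The genes and the lists were chosen with earlier results of these data known, so the difference is descriptive only.

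Levels of different genes can be compared only per length, and FPKM here divided by a length close to the union of all annotated exons of a gene. The length implied by counts and FPKM differed from the GENCODE exon total by -2.94% to 3.35% for the 10 genes. In PBS samples SQSTM1 had the highest mean level at 214 ± 6.64 FPKM (SD, n = 3), and only 1.07% of all genes tested had a higher mean over the 6 samples. WIPI1 followed at 21.2 ± 0.0840, then BECN1 at 19.6 ± 0.588, MAP1LC3B at 19.2 ± 0.676 and GABARAPL1 at 15.3 ± 0.720. NBR1 was at 13.8 ± 0.224, ULK1 at 8.37 ± 0.396, ATG12 at 5.26 ± 0.139, ATG5 at 5.18 ± 0.358 and TFEB at 0.807 ± 0.0816. The samples of BECN1 and MAP1LC3B overlapped, as did those of ATG12 and ATG5, so these neighbours were not separated. With rhSema3C, WIPI1 reached 38.5 ± 1.65, and GABARAPL1 at 20.8 ± 0.853 stood above MAP1LC3B at 18.7 ± 0.463. NBR1, at 19.4 ± 0.559, overlapped MAP1LC3B in these samples. When CPM was divided by the length of the principal transcript instead, the order with PBS was the same except that BECN1 came before WIPI1, at 63.5 and 41.9 CPM per kilobase.

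**Figure D4:**
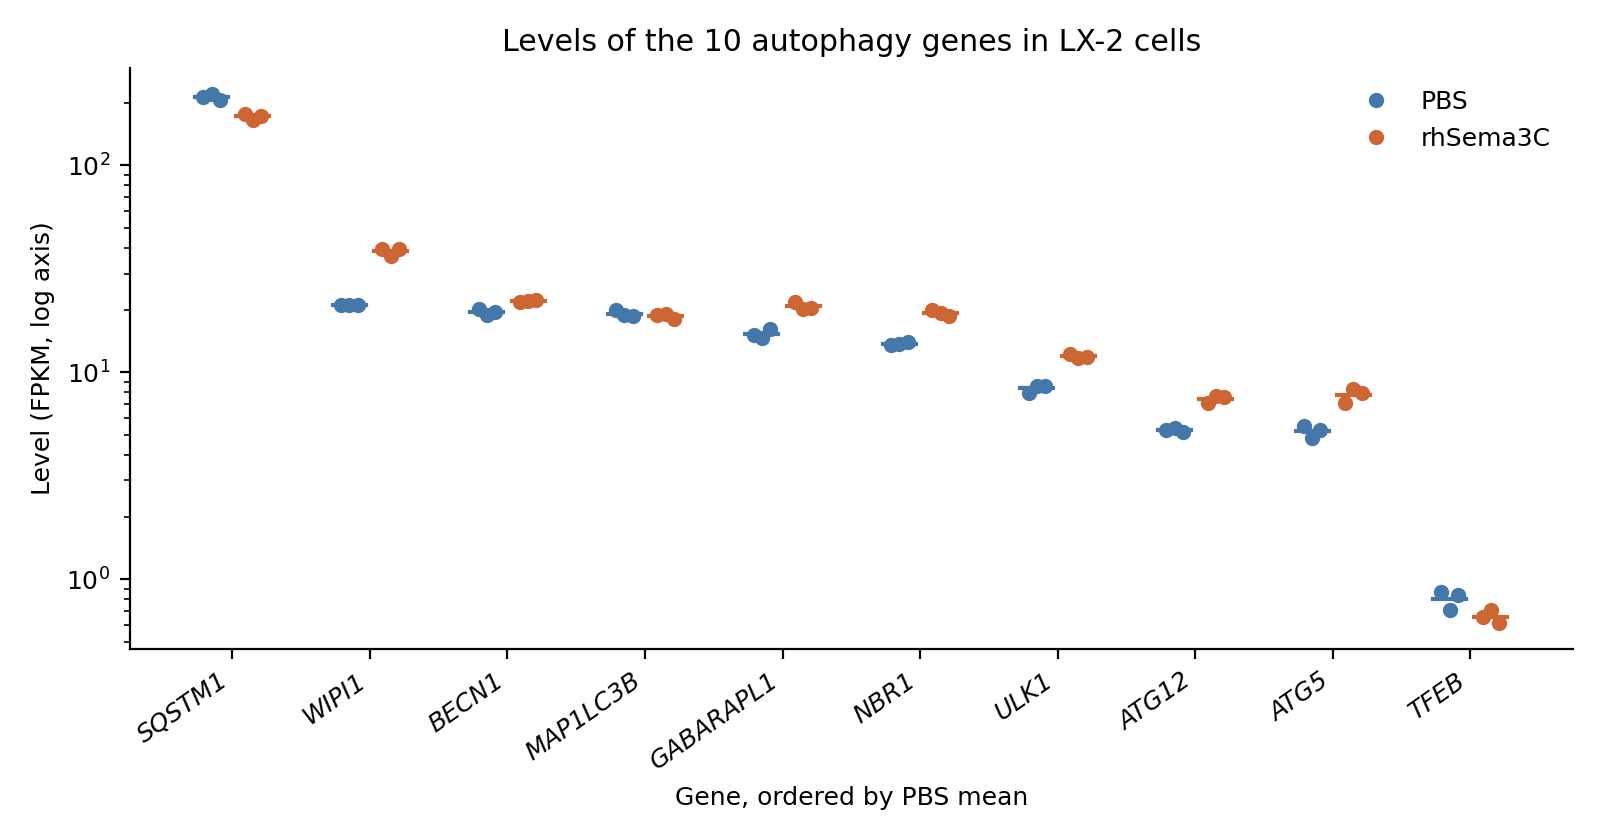
The vertical axis gives FPKM on a log scale for the 10 genes, ordered by the PBS mean, with a point for each of 3 PBS samples (blue) and 3 rhSema3C samples (orange) and a line at each group mean. SQSTM1 lies near 200 in both groups, and TFEB lies below 1.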

How the data were processed

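RNA of LX-2 cells was read on a NovaSeq sequencer (Illumina), and the study names the Cufflinks package and cuffmerge for differential expression. For 6 samples the deposited table holds raw counts as whole numbers and FPKM, which the authors divided by gene length and by library size. The aligner, counting tool, strand setting and genome build are not given in the sources used here. Coordinates of 4 of the 10 genes equalled those of GENCODE release 29 on GRCh38, and those of the other 6 lay within 293 bases of them.

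Groups and replicate numbers came from the labels. Genes at or above a mean of 0.5 FPKM were tested on counts with edgeR's quasi-likelihood test, TMM factors and Benjamini-Hochberg adjustment over 14178 genes. The standard error is the log2 fold change divided by the root of the F statistic. Ratios used a two-sided exact permutation test. CPM used TMM-scaled library sizes, and TPM was computed from FPKM. Within a group, samples were not duplicates (chi-square over degrees of freedom 15.9 to 27.6). The 10 genes, the 12 role lists and the marker lists were chosen by hand with earlier results of these data known. The rule for named genes took the 10, the largest rise and fall past the adjusted p in each role list, and all tested ATG8 genes and ubiquitin-binding receptors; a few other list members, single markers and genes that overlap the 10 or share their sequence were named after their values were seen. GO terms come from the deposited table. Shared sequence was counted as identical words of 75 bases on either strand in GENCODE transcripts. Promoters are from RefSeq. The test was tried on simulated counts. Alternatives covered scaling, test, pseudocount (1 and 0.1), filter, replicate block and each sample left out. Software was edgeR 4.0.16, limma 3.58.1 and DESeq2 1.42.0 under R 4.3.3.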

Additional observations from a re-analysis of the deposited data

How the results depend on the processing

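WIPI1, ATG5, ATG12, ULK1, NBR1, GABARAPL1 and SQSTM1 kept their direction and an adjusted p below 0.05 in all 16 alternatives, with a largest adjusted p of 0.0050, for SQSTM1. The choice among 3 scalings shifted the median of all genes and that of the 10 by similar amounts. The median log2 fold change of all genes was 0.02 with TMM, 0.13 with library size alone and 0.23 with TPM, and relative to it the median of the 10 genes was 0.34, 0.34 and 0.35. With TMM among genes at or above 5 FPKM on average, the medians were -0.0013 for all genes and 0.50 for the 9 of the 10 tested there. Calls among all genes at an adjusted p of 0.05 were 4490 up and 4339 down with TMM (50.9% up), 62.3% up with library size alone, 6934 up and 2428 down with TPM (74.1% up), and 2630 up and 2602 down among genes at or above 5 FPKM on average. By the study's rule of fold change and p, 485 rose and 300 fell, against 95 down with TPM, 173 up and 76 down with limma on log2(FPKM + 1), 182 down with a pseudocount of 0.1, 1284 up and 726 down without a filter, 167 up and 71 down at a mean FPKM of at least 5, and 965 up and 569 down with filterByExpr. The number of the 10 genes that fell was 3, and it was 1 with library size alone, TPM, either limma fit on FPKM and a mean FPKM of at least 5, and 1 to 3 with each sample left out. Without a sample, TFEB, MAP1LC3B or both were lost, except without PBS replicate 2. MAP1LC3B was at 0.086 with TPM. Among the other autophagy genes 41 fell, against 16 with TPM. Past the fold change of 2, 1 of them rose, against 4 with library size alone or TPM, 0 with limma on log2(FPKM + 1), 3 with a pseudocount of 0.1 and 2 at a mean FPKM of at least 5, and 0 fell, against 1 without a filter or with filterByExpr, and 0 to 1 with each sample left out. MAP1LC3A, not called, turned from -0.02 to 0.091 with library size alone, 0.087 at a mean FPKM of at least 5, 0.20 with TPM, 0.069 and 0.079 with limma on FPKM at pseudocounts of 1 and 0.1, and -0.12 to 0.050 with each sample left out. MAP1LC3B2 turned to 0.078 and GABARAPL2 to 0.019 with TPM. The cause was not tested. The ratios kept their sign with counts in place of FPKM and with each sample left out.

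The same replicate numbers in both groups mark no stated pairing, and deviations of same-numbered samples correlated at -0.08, -0.05 and -0.04. With the replicate number as a block, 6 of the 10 genes rose and 2 fell, with TFEB at -0.39 and an adjusted p of 0.070. Counts of 290 to 451 limit the precision for TFEB, and intervals from replicates cover 3 samples per group.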

Other observations

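Kinases and regulators that act on ULK1 were listed as a separate group, and 9 of 11 were tested. With TMM scaling 2 rose and 4 fell, where 31.7% of all genes rose and 30.6% fell. With library size alone or TPM 3 of the group rose and 3 fell. Of all 14178 genes tested, 5654 rose and 3415 fell with library size alone, and 6934 rose and 2428 fell with TPM. AKT1S1, which encodes the mTORC1 inhibitor PRAS40, fell most, from 161 ± 4.33 to 88.3 ± 1.78 CPM (SD over 3 samples), or -0.87 on the log2 scale (standard error 0.040). RPTOR, the mTORC1 scaffold that binds ULK1, fell by 0.61 on the log2 scale. PRKAB2, a regulatory subunit of AMPK, rose from 12.1 ± 1.27 to 21.3 ± 2.65 CPM, whereas PRKAB1, the other subunit of this type, fell by 0.38 on the log2 scale. MTOR was at -0.06 (adjusted p = 0.32), and PRKAA1 at 0.07 (adjusted p = 0.30), in edgeR's quasi-likelihood test. DEPTOR and PRKAA2, with a mean FPKM of 0.126 and 0.220, were not tested.

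The GO annotation in the deposited table gives sets that were not assembled by hand, examined after the role lists. Of 163 tested genes annotated to autophagy 56 rose and 62 fell, with a median log2 fold change of -0.01. Of 50 genes annotated to autophagosome assembly 20 rose and 18 fell, and of 34 annotated to autophagy of mitochondrion 10 rose and 12 fell. Among all genes tested 31.7% rose and 30.6% fell. BNIP3 and BNIP3L, receptors on mitochondria, rose by 0.93 and 0.68 on the log2 scale, and PHB2, an inner-membrane receptor, fell by 0.22.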
